A study of Mus musculus with 30 samples.

Results

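The 10 genes described here encode repressors of chromatin and were followed across 30 expression arrays of mouse embryonic fibroblasts: the Polycomb repressive complex 2 (PRC2) core genes Ezh2, Eed and Suz12, the heterochromatin protein 1 (HP1) genes Cbx1, Cbx3 and Cbx5, the methyltransferase gene Ehmt2, the deacetylase genes Hdac1 and Hdac2, and the DNA methyltransferase gene Dnmt1. They are 10 of the 18194 genes measured and were chosen by name, and the probe set with the strongest average signal stood for each gene. All 10 passed the filter on low signal, as did 12674 genes in all. Values are log2 RMA signal, so that a difference of 1 is a fold change of 2, and errors are standard errors from limma unless stated otherwise. A gene was called when its Benjamini-Hochberg adjusted p-value over the 12674 genes was below 0.05.

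The cells were p53 LSL/LSL fibroblasts of strain C57BL/6 x 129SvJ from E13.5 embryos, in which a stop cassette keeps p53 silent until Cre recombinase removes it. In a time course, cells given AdenoCRE, which restores p53, or AdenoGFP for 24 h then received 500 nM doxorubicin, a DNA-damaging drug, for 1, 3, 6 or 9 h, or were left untreated (0 h), with 1 array per virus and time. In the siRNA experiments every group had AdenoCRE for 24 h, then siRNA for 24 h, then 100 nM doxorubicin for 13 h. The lincP21KD experiment had siRNA against p53 (siP53, 3 arrays), against lincRNA-p21 (siLincp21, 3 arrays) and a non-targeting pool (siScramble, 2 arrays), and the hnRNPKKD experiment had siP53, siLincp21, siRNA against hnRNP-K (siHnrnpk) and a non-targeting pool (siControl), with 3 arrays each. Nothing in the labels ties replicates to separate cultures, and p-values of the siRNA experiments therefore cover the array-to-array spread alone, which may be technical. In the time course, with 1 array per virus and time, the spread behind the virus test also holds changes of the virus difference over time. AdenoCRE brings Cre and AdenoGFP brings GFP, and p53 restoration cannot be told apart from what else those viruses do.

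PRC2 trimethylates lysine 27 of histone H3, with Ezh2 as the catalytic subunit, Suz12 as a scaffold and Eed as the subunit that binds the mark already made. The HP1 proteins bind methylated lysine 9 of histone H3, a mark that Ehmt2 (G9a) writes in its lower states, while Hdac1 and Hdac2 remove acetyl groups as part of corepressor complexes and Dnmt1 copies DNA methylation after replication. Several of these genes, Ezh2 and Dnmt1 among them, are known for higher expression in dividing cells and as targets of E2F factors. In bulk samples, fewer cells of a type and less RNA per cell cannot be told apart.

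The cells carried the label of fibroblasts, and 10 of 10 fibroblast markers passed the filter, with a median percentile of 99.3 among all genes. Of 6 macrophage markers 4 passed, with Ptprc and Adgre1 below the limit, and 1 of 4 endothelial, 3 of 4 epithelial, 2 of 3 skeletal muscle and 4 of 4 neural markers passed. Hnrnpk read 8.38, 8.34 and 9.94 on the siHnrnpk arrays, against 12.68, 12.03 and 12.47 on the siControl arrays, so the third siHnrnpk array kept more of the transcript. Cdkn1a, the p53 target that encodes p21, read 10.52, 11.41 and 10.61 on the hnRNPKKD siP53 arrays, against 13.53, 13.43 and 13.51 on the siControl arrays, so the loss was smallest on the second siP53 array. In the lincP21KD experiment it read 10.53, 10.31 and 10.68 with siP53, against 12.48 and 12.68 with siScramble. The transcripts of p53 and of lincRNA-p21 are not analysed here, so changes with siLincp21 are changes with this siRNA.

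Promoters of 4 of the 5 members that rose with siP53 in the hnRNPKKD experiment are shown, from RefSeq in GRCm38.p6, each with 250 bases before the start of transcription and 50 after it, on the strand of the gene. Capitals mark a match to the E2F letters TTTCCCGC, TTTCGCGC, TTTGCCGC or TTTGGCGC on either strand, words chosen with results of these arrays known. The first base of the match lies at position 4 from the start in Ezh2, at -219 in Suz12 and at -219 and 34 in Dnmt1, and Cbx5 has none in this window. The promoter of Cbx1, the other member that rose, has none either and is not printed, so 3 of the 5 held the letters. Because the same arrays picked these 5 genes, that count is a description and not a test.
Ezh2 (chr6:47594981-47595280, minus strand): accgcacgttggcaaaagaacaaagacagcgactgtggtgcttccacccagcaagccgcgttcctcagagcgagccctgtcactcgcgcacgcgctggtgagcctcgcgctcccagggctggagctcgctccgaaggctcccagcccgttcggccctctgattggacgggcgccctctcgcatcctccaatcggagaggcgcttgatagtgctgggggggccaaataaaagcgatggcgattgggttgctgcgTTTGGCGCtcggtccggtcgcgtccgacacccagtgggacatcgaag
Suz12 (chr11:79992856-79993155, plus strand): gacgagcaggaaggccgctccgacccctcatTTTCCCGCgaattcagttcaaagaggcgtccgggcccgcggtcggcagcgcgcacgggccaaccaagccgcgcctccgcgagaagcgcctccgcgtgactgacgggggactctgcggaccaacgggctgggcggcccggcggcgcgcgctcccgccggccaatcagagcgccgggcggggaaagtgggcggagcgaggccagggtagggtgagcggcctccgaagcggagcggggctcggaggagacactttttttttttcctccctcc
Dnmt1 (chr9:20952574-20952873, minus strand): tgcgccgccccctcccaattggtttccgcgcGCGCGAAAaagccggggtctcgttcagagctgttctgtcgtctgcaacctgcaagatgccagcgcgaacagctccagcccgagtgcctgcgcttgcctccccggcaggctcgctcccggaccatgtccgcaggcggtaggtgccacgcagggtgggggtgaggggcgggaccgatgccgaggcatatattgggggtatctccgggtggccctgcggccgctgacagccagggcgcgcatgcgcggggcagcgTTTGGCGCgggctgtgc
Cbx5 (chr15:103239803-103240102, minus strand): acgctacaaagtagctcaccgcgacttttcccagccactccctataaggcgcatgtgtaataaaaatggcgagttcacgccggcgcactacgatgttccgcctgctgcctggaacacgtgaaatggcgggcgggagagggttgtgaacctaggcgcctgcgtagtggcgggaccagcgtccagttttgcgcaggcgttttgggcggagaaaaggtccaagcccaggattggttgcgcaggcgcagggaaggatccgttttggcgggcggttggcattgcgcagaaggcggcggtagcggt
Of the 9 members with a promoter entry, 4 held these letters in at least 1 promoter (Cbx3 was the other one, at -168), as did 4 of their 14 promoters. Eed, Ehmt2 and Hdac2 held none either, and Hdac1 had no promoter entry. Over all 32851 promoters the share was 2.265%, and 2.605% of 27025 genes held the letters in at least 1 promoter. The CHR letters TTTGAA or TTCGAA were in 3 of the 14 promoters (19.23% of all promoters) and the letters CCAAT in 6 of the 14 (37.41%), on either strand. A match is a description of letters and not a binding site or a cause. The Dnmt1 promoter is the last of 3 in the table and the Cbx5 promoter the first of 2, and the other promoters of these genes held no match.

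In the time course, 2 of the 10 members were called lower in AdenoCRE than in AdenoGFP cells, Suz12 and Cbx1, and 0 were called higher. Over all tested genes 19.1% were called, 6.24% lower and 12.9% higher. The members had a median difference of -0.23, against 0.04 over all tested genes. Each difference was tested over 5 pairs of arrays with time as a block, so a difference that changes with time adds to its own error.

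Within PRC2, Suz12 read 9.50, 8.97, 9.22, 8.89 and 9.05 at 0, 1, 3, 6 and 9 h in AdenoCRE cells, against 9.57, 9.63, 9.31, 9.60 and 9.55 in AdenoGFP cells. It was lower with AdenoCRE at all 5 times, and the groups overlapped through the untreated AdenoCRE array and the 3 h AdenoGFP array. The fitted difference was -0.41 ± 0.12 (limma, adjusted p = 0.0473), and all 6 of its probe sets lay between -0.52 and -0.25. Its call ended in the 4 fits without 1 h, 3 h, 6 h or 9 h (-0.49 to -0.33), without the filter, with no time block, and with the mean of probe sets (-0.39).

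Ezh2, the catalytic subunit, did not pass (-0.34 ± 0.13, adjusted p = 0.0957). It read 10.02, 9.56, 9.66, 9.83 and 9.61 in AdenoCRE cells, against 10.02, 9.85, 9.76, 10.33 and 10.43 in AdenoGFP cells. The untreated arrays of the viruses were level, and the widest gaps were at 6 h (-0.51) and 9 h (-0.82). Eed, the third core subunit, stood on the other side of 0, at 0.25 ± 0.11 (adjusted p = 0.165). Its difference was 0.52, 0.37 and 0.42 at 3, 6 and 9 h, against 0.10 and -0.16 at 0 and 1 h.

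Among the HP1 genes, Cbx1 (HP1-beta) read 10.32, 10.01, 9.85, 9.96 and 9.78 in AdenoCRE cells, against 10.58, 10.81, 10.65, 10.24 and 10.62 in AdenoGFP cells. All 5 pairs were lower with AdenoCRE, and the groups overlapped only through the untreated AdenoCRE array and the 6 h AdenoGFP array. The difference was -0.60 ± 0.12 (limma, adjusted p = 0.0124). The other probe sets of the gene gave -0.24, 0.04, -0.09 and 0.39, and the mean of all 5 probe sets gave -0.10 (adjusted p = 0.384). The call also ended without the 3 h pair (-0.54). Cbx5 (HP1-alpha) was at -0.22 ± 0.10 and Cbx3 (HP1-gamma) at 0.01 ± 0.09, and neither passed.

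Dnmt1 read 9.93, 9.93, 9.95, 10.20 and 10.04 in AdenoCRE cells, against 10.33, 10.00, 10.05, 10.67 and 11.06 in AdenoGFP cells. The AdenoCRE arrays stayed within a narrow band while the AdenoGFP arrays at 6 and 9 h were the highest, so that the difference was largest at 9 h (-1.02). Over all times it was -0.41 ± 0.14 and did not pass (limma, adjusted p = 0.075), and its 3 probe sets lay between -0.44 and -0.29. Hdac2 was lower at all 5 times without overlap between the viruses (-0.23 ± 0.08, adjusted p = 0.0848). Hdac1 (0.01 ± 0.09) and Ehmt2 (0.09 ± 0.08) did not pass. Array scaling mattered for this comparison, in which the 6 h AdenoGFP array had the lowest median. Centring each array moved the median of all genes to -0.07 and the share of calls that were higher from 67.4% to 45.2%, and quantile scaling gave 51.5%. With centring, Ezh2 (-0.45), Dnmt1 (-0.52) and Hdac2 (-0.34) were called lower as well. Genes called lower over all tested genes numbered 1351 with centring, against 791 without it.

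**Figure D1:**
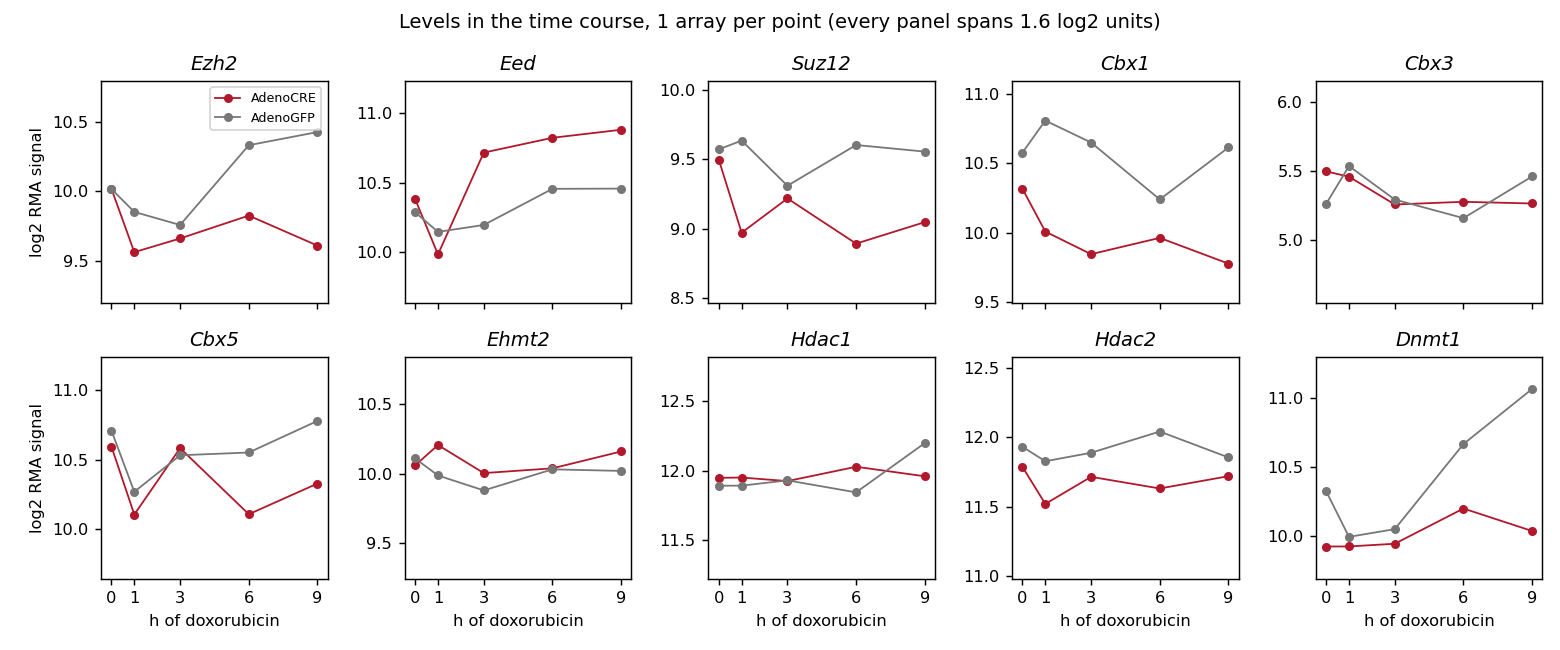
Log2 RMA signal (vertical axes, each spanning 1.6 log2 units) of the 10 members against hours of doxorubicin (horizontal axes) in AdenoCRE (red) and AdenoGFP (grey) cells, with 1 array per point. The Suz12, Cbx1, Hdac2 and Dnmt1 points of AdenoCRE lie below those of AdenoGFP at all 5 times, and the Ezh2 and Dnmt1 gaps are widest at 9 h.

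Slopes on the hours of doxorubicin called 0 of 10 members within AdenoCRE cells (5.4% of all genes called, 3.95% rising and 1.45% falling), 0 within AdenoGFP cells (0.00789%) and 0 for the difference between the viruses (0.181%). At an unadjusted p below 0.05 in limma the counts were 1, 2 and 2 members, against 2554, 1654 and 1065 of the 12674 tested genes. Nothing is read from these counts about the members. Dnmt1 had 0.02 ± 0.03 per hour with AdenoCRE and 0.10 ± 0.03 per hour with AdenoGFP, a difference of -0.08 ± 0.04 (adjusted p = 0.565). Ezh2 had -0.02 ± 0.03 with AdenoCRE and 0.06 ± 0.03 with AdenoGFP, a difference of -0.08 ± 0.04 (adjusted p = 0.58).

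With siP53 in the hnRNPKKD experiment 8 of the 10 members were called, 5 higher and 3 lower than with siControl, against 38.6% of all tested genes (19.3% higher and 19.2% lower). Cbx5, Dnmt1, Cbx1, Ezh2 and Suz12 rose, and Eed, Hdac2 and Ehmt2 fell. The median of the members was 0.22, against -0.01 over all genes. Cbx3 (0.03 ± 0.10) and Hdac1 (0.02 ± 0.08) did not pass.

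The largest change among members was in Cbx5, whose product HP1-alpha marks constitutive heterochromatin. It read 9.27, 8.98 and 9.21 with siP53, against 7.71, 8.10 and 7.79 with siControl. Every siP53 array was above every siControl array, by 1.29 ± 0.17 in the fit, a fold change of 2.44 (limma, adjusted p = 9.27e-05). The other probe sets past the filter were higher too, at 0.24, 0.73 and 1.22.

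Dnmt1 read 9.95, 9.42 and 10.27 with siP53, against 9.21, 9.15 and 9.07 with siControl. The groups did not overlap, and the second siP53 array was closest to the controls (0.74 ± 0.18, adjusted p = 0.00544; probe sets from 0.37 to 0.85). Cbx1 read 10.80, 10.10 and 10.77 with siP53, against 10.07, 9.85 and 9.90 with siControl, with the same array lowest (0.62 ± 0.18, limma, adjusted p = 0.0165). Its other probe sets gave -0.03 to 0.28, and its call ended in 4 of 12 fits that each left out 1 array (0.50 to 0.60), those without siP53 replicate 1 or 3 or siControl replicate 2 or 3.

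In PRC2 the core subunits went apart. Ezh2 read 9.41, 9.25 and 9.64 with siP53, against 8.76, 8.99 and 8.93 with siControl, with no overlap (0.54 ± 0.11, limma, adjusted p = 0.00192). Eed read 10.47, 10.35 and 10.56 with siP53, against 11.10, 10.85 and 11.00 with siControl, again with no overlap, and fell by 0.53 (SE 0.09, adjusted p = 0.000531). Suz12 read 10.09, 9.63 and 10.19 with siP53, against 9.73, 9.44 and 9.51 with siControl. Its groups overlapped through the second siP53 array, and the difference of 0.41 ± 0.15 (limma, adjusted p = 0.0445) lost its call without the filter and in 9 of 12 fits that left out 1 array (0.30 to 0.41). It kept the call only without siP53 replicate 2, siControl replicate 1 or siLincp21 replicate 3. All 6 probe sets were higher (0.21 to 0.76).

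Hdac2 read 11.60, 11.60 and 11.74 with siP53, against 12.12, 11.94 and 12.04 with siControl, and fell by 0.39 (SE 0.08, limma, adjusted p = 0.00263). Its second probe set gave -0.79. Ehmt2 read 9.57, 9.84 and 9.62 with siP53, against 10.05, 9.86 and 9.93 with siControl. The second siP53 array lay just under the lowest control, and the call (-0.27 ± 0.10, limma, adjusted p = 0.0422) ended in 9 of 12 fits that left out 1 array (-0.28 to -0.22), all but those without siP53 replicate 2, siControl replicate 2 or siHnrnpk replicate 1. It also ended without the filter and with centring, quantile scaling or the mean of probe sets. Without siP53 replicate 2, the array with the smallest loss of Cdkn1a, 8 members were again called (share of all genes in that fit not given).

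With siLincp21 in the same experiment, 6 of 10 members were called, 5 lower and 1 higher, against 29% of all genes, 11.8% lower and 17.2% higher. Suz12, Cbx5, Cbx3, Hdac1 and Hdac2 fell, and Ehmt2 rose. This comparison and those of siP53 and siHnrnpk share the 3 siControl arrays. The median of the members was -0.27, against 0.01 over all genes.

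Cbx5 read 6.75, 6.64 and 7.18 with siLincp21, against 7.71, 8.10 and 7.79 with siControl, with no overlap (-1.01 ± 0.17, limma, adjusted p = 0.000913), and its other probe sets were lower as well (-0.81, -0.31 and -1.31). Suz12 read 8.77, 8.72 and 9.08 with siLincp21, against 9.73, 9.44 and 9.51 with siControl, again with no overlap (-0.70 ± 0.15, limma, adjusted p = 0.00342; 6 probe sets from -0.92 to -0.48). Neither call was lost when any 1 array was left out. Ezh2, the catalytic partner of Suz12, read 8.66, 8.59 and 8.74, against 8.76, 8.99 and 8.93, and did not pass (-0.23 ± 0.11, limma, adjusted p = 0.149), nor did Eed (0.13 ± 0.09).

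Both deacetylase genes fell with siLincp21. Hdac1 read 11.37, 11.43 and 11.34 with siLincp21, against 11.70, 11.70 and 11.65 with siControl, a small shift with little spread (-0.31 ± 0.08, limma, adjusted p = 0.00971). Hdac2 read 11.71, 11.62 and 11.70, against 12.12, 11.94 and 12.04 (-0.36 ± 0.08, limma, adjusted p = 0.00603), with its other probe sets at -0.60 and -0.06.

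Cbx3, measured by a single probe set of low signal (mean 5.69 over all arrays), read 5.55, 5.29 and 5.36 with siLincp21, against 5.87, 5.86 and 5.63 with siControl (-0.39 ± 0.10, limma, adjusted p = 0.0109). The call ended without siLincp21 replicate 2 (-0.33). Ehmt2 read 10.17, 10.29 and 10.29 with siLincp21, against 10.05, 9.86 and 9.93 with siControl, with no overlap (0.30 ± 0.10, limma, adjusted p = 0.0346; second probe set 0.30). This call ended in 5 of 12 fits that left out 1 array (0.26 to 0.34), those without siLincp21 replicate 1, 2 or 3 or siControl replicate 2 or 3, and with centring (0.24). Cbx1 (0.19 ± 0.18) and Dnmt1 (-0.17 ± 0.18) did not pass.

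With siHnrnpk, 4 of 10 members were called, all lower, against 26.9% of all genes, 12.8% lower. Cbx5, Ezh2, Suz12 and Hdac2 fell, each by the probe set that stood for it. The median of the members was -0.25, against 0.00 over all genes. Without siHnrnpk replicate 3, which kept the most Hnrnpk, 3 members were called (share of all genes in that fit not given).

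Cbx5 read 6.37, 6.28 and 6.84 with siHnrnpk, against 7.71, 8.10 and 7.79 with siControl, with no overlap (-1.37 ± 0.17, limma, adjusted p = 0.000115). The probe sets of the gene disagreed here: another gave -0.96, but the remaining pair gave -0.15 and 0.14, so size and direction differed between probe sets. That pair had the stronger signal in this experiment, with means of 8.76 and 8.77, against 7.59 for the probe set used. The fall of Cbx5 with siHnrnpk is thus that of the probe set used and not of all its probe sets. Ezh2, which has 1 probe set, read 8.05, 8.25 and 8.15, against 8.76, 8.99 and 8.93. This was the lowest Ezh2 level of the experiment, below every array of the other groups (-0.74 ± 0.11, limma, adjusted p = 0.000344).

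Suz12 read 9.07, 8.94 and 9.14 with siHnrnpk, against 9.73, 9.44 and 9.51 with siControl, with no overlap (-0.50 ± 0.15, limma, adjusted p = 0.0243; probe sets from -0.62 to -0.15). The call ended in 4 of 12 fits that left out 1 array (-0.53 to -0.42), those without siHnrnpk replicate 1 or 2 or siControl replicate 1 or 3, and with the mean of probe sets (-0.44). Hdac2 read 11.77, 11.77 and 11.83, against 12.12, 11.94 and 12.04 (-0.25 ± 0.08, limma, adjusted p = 0.0432), and its call ended without the filter, with the mean of probe sets (-0.23) and in 9 of those 12 fits (-0.27 to -0.20), all but the ones without siP53 replicate 2 or 3 or siControl replicate 2. Dnmt1 read 8.79, 8.72 and 8.74 with siHnrnpk, against 9.21, 9.15 and 9.07 with siControl. These groups did not overlap, yet the difference did not pass with the spread of the whole experiment (-0.39 ± 0.18, limma, adjusted p = 0.127). It was called with the mean of probe sets (-0.31) and without siP53 replicate 2 (-0.39). Cbx3 was at -0.26 ± 0.10 and was called with a replicate block, and without siControl replicate 3 (-0.34), among the alternatives run.

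**Figure D2:**
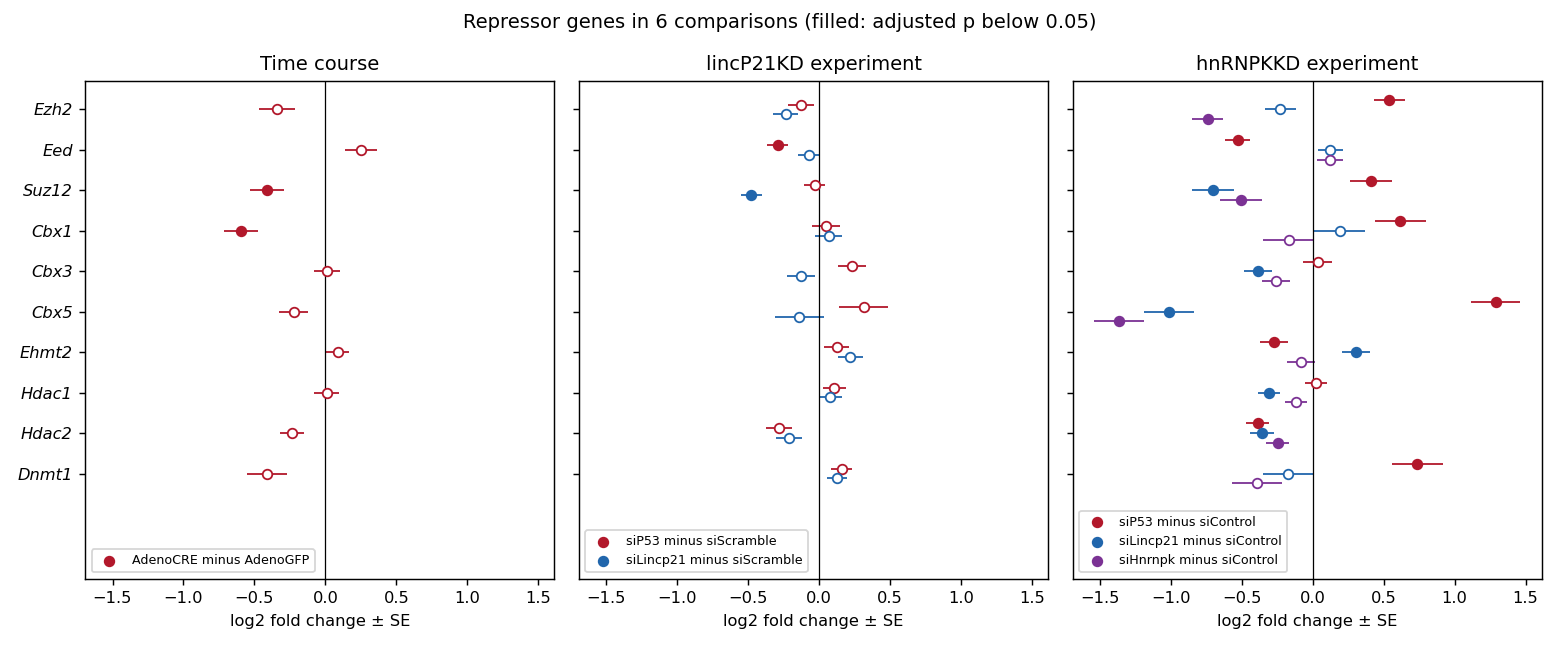
Log2 fold change (horizontal axes) with its standard error for the 10 members (down the page) in the time course, the lincP21KD experiment and the hnRNPKKD experiment, with filled points at an adjusted p below 0.05. Cbx5 spans from 1.29 with siP53 to -1.37 with siHnrnpk, while in the lincP21KD experiment only Eed with siP53 and Suz12 with siLincp21 are filled.

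Direct contrasts among the knockdowns of the hnRNPKKD experiment do not use siControl in their estimates, though its arrays enter the shared spread. Between siP53 and siLincp21, 8 of 10 members were called (38.8% of all genes, 17.5% higher and 21.3% lower), with Cbx5 higher in siP53 cells by 2.30 ± 0.17, Suz12 by 1.12 ± 0.15, Dnmt1 by 0.91 ± 0.18, Ezh2 by 0.77 ± 0.11, Cbx3 by 0.42 ± 0.10 and Hdac1 by 0.33 ± 0.08, and Eed (-0.65 ± 0.09) and Ehmt2 (-0.58 ± 0.10) lower. Between siHnrnpk and siLincp21, 2 members were called (27.6% of all genes). Ezh2 was -0.51 ± 0.11 (adjusted p = 0.00392) and Ehmt2 -0.38 ± 0.10 (adjusted p = 0.011), both lower in siHnrnpk cells (the Ehmt2 call ended without siHnrnpk replicate 1, at -0.33), and Cbx5 was -0.36 ± 0.17 (95% interval from -0.73 to 0.02), which did not pass. Between siHnrnpk and siP53, 7 members were called (45.3% of all genes, 22.9% higher and 22.5% lower), 6 lower and Eed higher (0.65 ± 0.09). The call of Cbx3 among them (-0.29 ± 0.10) ended without siP53 replicate 1 or any siHnrnpk array.

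**Figure D3:**
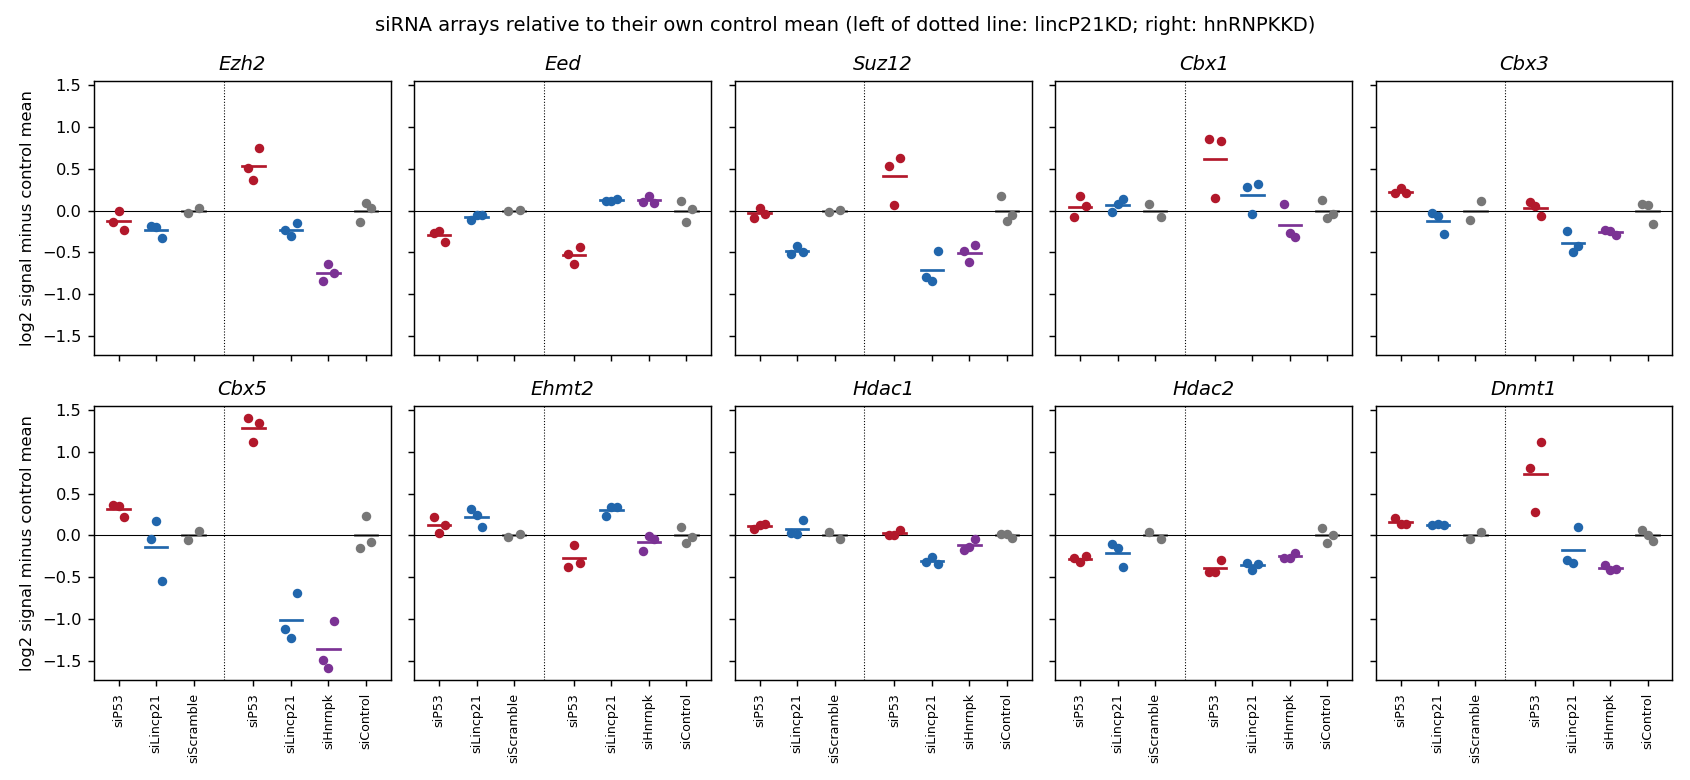
Log2 signal of each siRNA array minus the mean of the control arrays of its own experiment (vertical axes), for the 10 members, with lincP21KD groups left of the dotted line and hnRNPKKD groups right of it. Points are arrays and bars are group means. In the hnRNPKKD experiment the Cbx5 arrays of siP53 lie above the controls and those of siLincp21 and siHnrnpk below them, and the second siP53 array is the lowest of its group for Cbx1, Dnmt1 and Suz12.

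In the lincP21KD experiment fewer members were called. With siP53 it was 1 of 10, against 12.7% of all genes (7.01% higher and 5.74% lower): Eed read 10.18, 10.20 and 10.07, against 10.43 and 10.44 with siScramble, and fell by 0.29 (SE 0.07, limma, adjusted p = 0.03). Every siP53 array was below both controls. The call ended in 4 of 8 fits that left out 1 array (-0.31 to -0.25), those without siP53 replicate 1 or 3 or either siScramble array, with a replicate block (-0.28), and with the mean of its probe sets (-0.12), of which the second is below the filter limit. Among the members that did not pass were Cbx5 (0.31 ± 0.17, called with a replicate block at 0.44), Cbx3 (0.23 ± 0.10), Dnmt1 (0.16 ± 0.07), Ehmt2 (0.12 ± 0.09), Hdac1 (0.11 ± 0.08) and Hdac2 (-0.28 ± 0.09).

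With siLincp21 it was again 1 of 10, against 11.9% of all genes (7.47% higher and 4.39% lower). Suz12 read 9.52, 9.61 and 9.55, against 10.03 and 10.05 with siScramble. The groups stood clear of each other, and Suz12 fell by 0.48 (SE 0.07, limma, adjusted p = 0.00383). All 6 probe sets were lower (-0.60 to -0.08), and the call was kept in each of the 8 fits that left out 1 array. Suz12 was thus called lower with siLincp21 in each experiment against its own controls, at -0.48 in lincP21KD and -0.70 in hnRNPKKD, and the test of the difference between them gave 0.23 ± 0.19 (adjusted p = 0.566). Cbx5, which fell with siLincp21 in the hnRNPKKD experiment, read 10.64, 10.86 and 10.14, against 10.63 and 10.74, with the third array alone below the controls (-0.14 ± 0.17). In the direct contrast of siP53 with siLincp21 within this experiment, 3 members were called (20.4% of all genes, 9.22% higher and 11.2% lower): Suz12 (0.45 ± 0.07) and Cbx3 (0.35 ± 0.09) higher, and Eed (-0.22 ± 0.07) lower in siP53 cells. Cbx5 had a difference as large (0.45 ± 0.15, limma, adjusted p = 0.0614) and was called under 5 alternatives, namely centring, the mean of probe sets, trend and robust variances, a replicate block, and without siLincp21 replicate 2. The Eed call ended with centring, without the filter, with a replicate block and in each of the 8 fits that left out 1 array, and the mean of its probe sets turned it to 0.014, while the Cbx3 call ended without siP53 replicate 2 (0.34).

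The siRNA experiments differed in some of these effects, and their control arrays differed in level as well. Mean Cbx5 was 7.87 with siControl and 10.68 with siScramble, Ezh2 8.89 and 10.22, and Hdac1 11.69 and 12.07. The other Cbx5 probe sets past the filter read 8.94 and 10.18, 8.63 and 9.64, and 6.74 and 7.40. Each of these gaps was narrower than that of the probe set used. Eed alone among the members was lower with siScramble (10.99 and 10.44). The array medians over all tested genes differed too, at 8.03, 8.01 and 8.04 with siControl and 8.31 and 8.37 with siScramble. Gaps of the members in level include this shift of whole arrays. The part of these control levels in the differing effects was not tested. The siP53 effect, in lincP21KD minus hnRNPKKD, was called for 2 of 10 members, against 14.5% of all genes (7.35% higher and 7.14% lower): Ezh2 (-0.67 ± 0.15, limma, adjusted p = 0.00575) and Cbx5 (-0.97 ± 0.27, adjusted p = 0.02). Ezh2 was -0.13 ± 0.09 with siP53 in lincP21KD and 0.54 ± 0.11 in hnRNPKKD. The Cbx5 call ended in 3 of 20 fits that left out 1 array (-1.03 to -0.92), those without hnRNPKKD siP53 replicate 1 or either siScramble array. The Cbx5 probe set used had siP53 effects of 0.31 in lincP21KD and 1.29 in hnRNPKKD. Its other probe sets past the filter gave 0.28 and 0.24, 0.35 and 0.73, and 0.41 and 1.22, so the difference varied by probe set. Without hnRNPKKD siP53 replicate 2, 6 members were called. The share of all genes called in that fit is not given, so this count has no background beside it. The siLincp21 effect differed for 1 member, Hdac1 (0.39 ± 0.11, limma, adjusted p = 0.03), against 8.14% of all genes (3.51% higher and 4.63% lower). Its call ended with a replicate block (0.36) and in 7 of 20 fits that left out 1 array (0.33 to 0.43): hnRNPKKD siLincp21 replicate 1 or 3, siControl replicate 1 or 2, either siScramble array, or lincP21KD siLincp21 replicate 3. In the same test Cbx5 (0.87 ± 0.27) did not pass (adjusted p = 0.0516), and it was called under 10 of the alternatives (0.64 to 1.08), among them centring, quantile scaling and a replicate block.

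**Figure D4:**
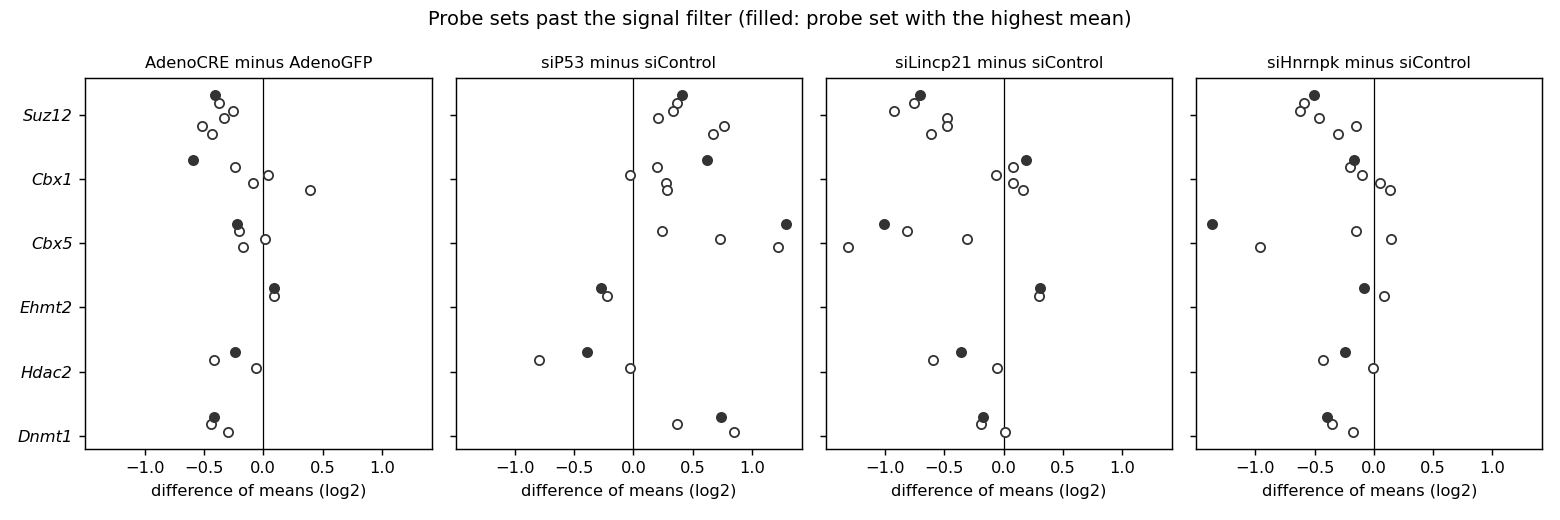
Difference of group means (log2, horizontal axes) for every probe set past the filter of 6 members, in the time course and in 3 hnRNPKKD comparisons, with the highest probe set filled. The 6 Suz12 probe sets stay on the same side of 0 in each panel, whereas the Cbx1 probe sets spread from -0.60 to 0.39 in the time course and the Cbx5 probe sets from -1.37 to 0.14 with siHnrnpk.

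Genes of DNA replication and mitosis were called in each of these comparisons, though not always on the side of the members. With siP53 in the hnRNPKKD experiment 15 of 28 replication genes and 18 of 18 mitotic genes rose, with medians of 0.42 and 0.91, among them the polymerase gene Pola1 (1.51 ± 0.12) and the mitotic kinase gene Aurkb (1.61 ± 0.13). With siLincp21, 14 of 28 and 14 of 18 fell and 2 and 0 rose (medians -0.39 and -0.60), and with siHnrnpk 11 and 10 fell and 2 and 0 rose (medians -0.26 and -0.48). In AdenoCRE cells 8 of 28 and 8 of 18 were lower than in AdenoGFP cells (medians -0.36 and -0.46). With siP53 in the lincP21KD experiment 7 and 7 rose (medians 0.14 and 0.36). With siLincp21 in that experiment, where Suz12 fell, 1 replication gene rose and 1 fell (median 0.03), and 2 mitotic genes rose and 0 fell (median 0.21). The siLincp21 effect differed between the experiments (lincP21KD minus hnRNPKKD) for 7 replication and 14 mitotic genes, all higher (medians 0.38 and 0.80). The medians over all tested genes lay between -0.01 and 0.04 in these comparisons. Of all genes in hnRNPKKD, 19.3% rose with siP53, 11.8% fell with siLincp21 and 12.8% fell with siHnrnpk. For the viruses 6.24% were lower. In lincP21KD 7.01% rose with siP53, and 7.47% rose and 4.39% fell with siLincp21. The siLincp21 effect was higher in lincP21KD for 3.51%. Nothing is read from the list counts with siLincp21 in lincP21KD. The part of cell division in the levels of the members was not tested.

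Some markers of cell types were called in these comparisons as well, and their part in the results was not tested. Over all genes in hnRNPKKD, 19.3% rose and 19.2% fell with siP53, 17.2% and 11.8% with siLincp21, and 14.1% and 12.8% with siHnrnpk. For the viruses 12.9% were higher and 6.24% lower. With so few markers per list, nothing is read from the counts about cell types. In hnRNPKKD 7 of 10 fibroblast markers rose with siP53, 6 rose and 1 fell with siLincp21, and 2 rose with siHnrnpk. The mean level of the 4 macrophage markers past the filter was 5.26 to 6.06 with siP53, against 6.82 to 6.88 with siControl, and 2 of the 4 fell. Of the 3 epithelial markers past the filter 1 fell with each siRNA, and their mean level was 5.15 to 5.20 with siP53, 5.20 to 5.27 with siLincp21 and 5.03 to 5.35 with siHnrnpk, against 6.15 to 6.20 with siControl. Of the 4 neural markers 2 rose with siP53, 2 with siLincp21 and 3 with siHnrnpk, where their mean level was 7.04 to 7.22, against 6.33 to 6.41 with siControl. In AdenoCRE cells 1 fibroblast marker was higher and 3 were lower, 2 macrophage markers were higher and 2 epithelial markers were lower than in AdenoGFP cells.

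**Figure D5:**
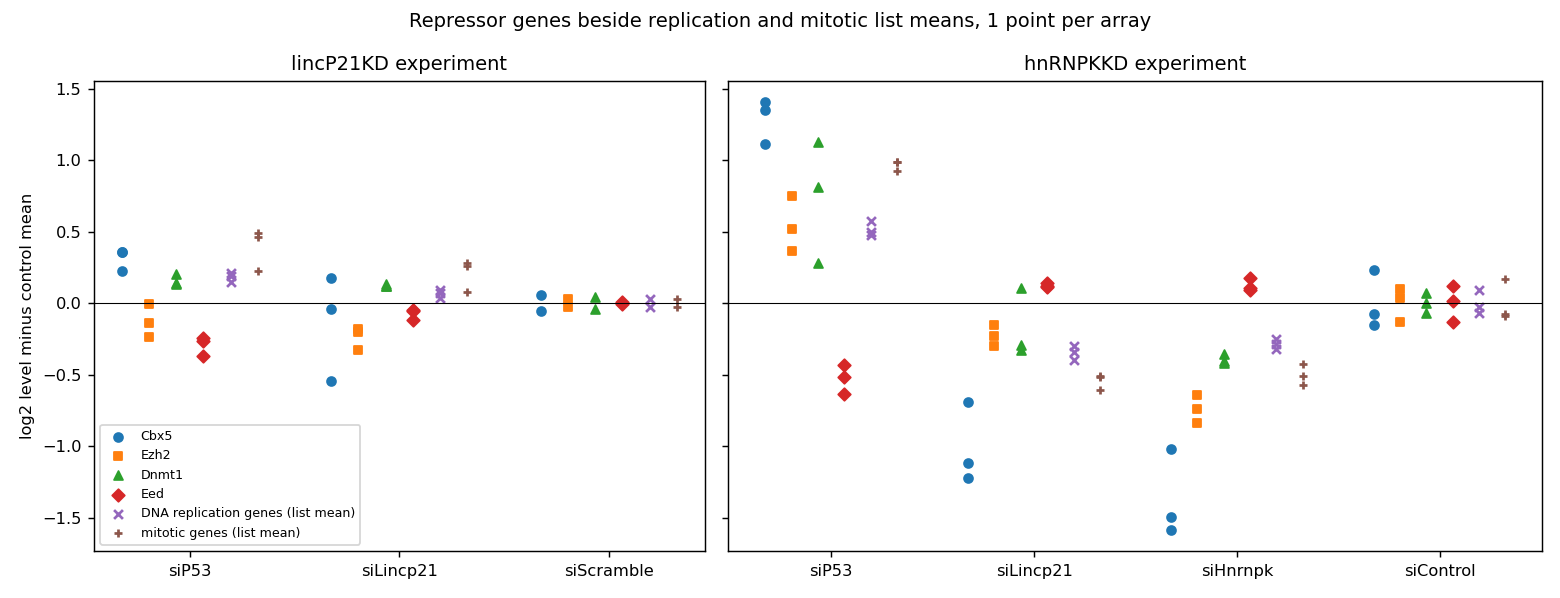
Log2 level of each array minus the mean of its control arrays (vertical axis) for Cbx5, Ezh2, Dnmt1 and Eed and for the mean of 28 replication genes and of 18 mitotic genes, by siRNA group in each experiment. With siP53 in hnRNPKKD both list means lie above the controls together with Cbx5, Ezh2 and Dnmt1, and Eed lies below them.

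Other genes of the same machinery are given from lists chosen with earlier results known. Of 8 further PRC2 subunits, 0 rose and 3 fell with siP53 in hnRNPKKD, 1 rose and 2 fell with siLincp21, and 1 rose and 2 fell with siHnrnpk. Each is 3 of 8, against 38.6%, 29% and 26.9% of all genes called, and nothing is read from these counts about the list. The accessory subunit gene Jarid2 rose with siLincp21 (0.70 ± 0.12) and with siHnrnpk (0.63 ± 0.12), and Mtf2, a Polycomb-like subunit, fell with each (-0.45 ± 0.08 and -0.28 ± 0.08). Aebp2, a PRC2 cofactor, was called lower with siP53 in hnRNPKKD (-0.57 ± 0.12) and in lincP21KD (-0.35 ± 0.08), and higher in AdenoCRE than in AdenoGFP cells (0.33 ± 0.09). Of 16 PRC1 subunits, 2 rose and 3 fell with siP53 in hnRNPKKD, against 38.6% of all genes called, and nothing is read from this either. Pcgf3, of the variant PRC1 complexes, fell there (-0.65 ± 0.08) and in lincP21KD (-0.43 ± 0.08), and was higher in AdenoCRE cells (0.53 ± 0.11).

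Partners of HP1, Hdac1 and Dnmt1 were measured as well. Uhrf1, which brings Dnmt1 to replicated DNA, was lower in AdenoCRE than in AdenoGFP cells (-0.57 ± 0.13), rose with siP53 in hnRNPKKD (0.72 ± 0.17) and fell there with siLincp21 (-0.62 ± 0.17) and siHnrnpk (-0.77 ± 0.17). The methyltransferase gene Suv39h2, whose mark HP1 binds, gave -0.40 ± 0.10, 0.68 ± 0.12, -0.53 ± 0.12 and -0.36 ± 0.12 in the same comparisons, all called. Of 25 other deacetylase and corepressor genes, 10 fell and 0 rose with siHnrnpk (median -0.17, against 0.00 over all genes), while 4 rose and 4 fell with siP53. The 10 of 25 compare with 12.8% of all genes lower with siHnrnpk. The 4 and 4 of 25 compare with 19.3% of all genes higher and 19.2% lower with siP53, and nothing is read from them. Rest, the repressor that recruits corepressors to neuronal genes, fell with siP53 (-0.71 ± 0.09), siLincp21 (-0.69 ± 0.09) and siHnrnpk (-0.53 ± 0.09), comparisons with the same controls. Of 9 tested demethylases of H3K27 and H3K9, 4 rose and 1 fell with siLincp21, with Kdm7a at 1.06 ± 0.17, and 0 rose and 2 fell with siP53, with Kdm7a at -1.03 ± 0.17. Over all genes 17.2% were higher and 11.8% lower with siLincp21, and 19.3% higher and 19.2% lower with siP53. Nothing is read from these counts about the demethylases.

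Of 8 classical Polycomb targets past the filter, 1 rose and 1 fell with each siRNA of the hnRNPKKD experiment, and in AdenoCRE cells 1 was higher and 2 were lower. With each siRNA that is 2 of 8, against 38.6%, 29% and 26.9% of all genes called. For the viruses 12.9% of all genes were higher and 6.24% lower. Nothing is read from these counts about the targets. Cdkn1c, an imprinted cell cycle inhibitor gene, rose with siP53 (0.62 ± 0.10), siLincp21 (1.47 ± 0.10) and siHnrnpk (0.56 ± 0.10). Hoxa9, a homeobox gene, fell with siLincp21 (-0.67 ± 0.12) and siHnrnpk (-1.30 ± 0.12), and Cdkn2b, which encodes the inhibitor p15, fell with siP53 (-0.94 ± 0.10).

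Likeness over the 30 arrays was taken for Cbx1, the member with the smallest adjusted p in the time course, as Pearson's r after the mean of each experiment was removed. The 5 genes nearest to it were Dennd4a (0.91), Lmo7 (0.89), Mef2c (0.88), Colec12 (0.88) and Pkdcc (0.87). The arrays share groups, so these values are descriptions without a test.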

How the data were processed

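The deposited table holds log2 signal from the Affymetrix arrays, which the authors made with RMA, as listed per the submitters' processing notes; its version is not given. The values were used without further scaling. Of 45101 probe sets, 34958 had 1 gene symbol, 932 several and 9211 none, by the platform annotation with symbols updated to GRCm38.p6. Genes were kept where the mean of their probe set exceeded the level below which 40% of probe sets lie (limit 4.544). Models were fitted to all 12674 genes per experiment with limma 3.58.1 in R 4.3.3 and plain eBayes, with time as a block for the virus effect, and the differences between siRNA experiments came from a joint fit. The fits were tested on simulated data. The precision is limited by the number of arrays, 2 to 5 per group, and medians over tested genes ran from 7.98 to 8.40 per array. The members, lists and alternatives were chosen with earlier results of these data known.

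Named genes were the 10 members, Hnrnpk and Cdkn1a, up to 3 called genes with the smallest adjusted p per list and comparison, and the 5 genes most like the member with the smallest adjusted p for the viruses. Same-numbered arrays were judged paired where every one of 3 pairs had a correlation above 0.1 in its deviations from the group means. This held for siHnrnpk and siControl (0.216, 0.166 and 0.209). Values for siP53 with siLincp21 in lincP21KD (0.212, 0.054 and 0.341) and siHnrnpk with siLincp21 (0.011, 0.204 and 0.044) were positive in all pairs but below that limit in at least 1. In hnRNPKKD, siLincp21 with siP53 gave -0.033, 0.631 and 0.694. Such values are a hint from the arrays that no label states. The main siRNA fits used no pairing, and a replicate block was run as an alternative. No replicate pair was a duplicate (r between 0.983 and 0.998 in each group). Alternatives were median centring, quantile scaling, the mean of probe sets, no filter, trend and robust variances, no time block, log2 of hours, a replicate block and leaving out each array or time. An experiment with RAS is not used here.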

Additional observations from a re-analysis of the deposited data

Results flagged for a closer look

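On the AdenoGFP array at 3 h Suz12 read 9.31, far below the other 4 AdenoGFP arrays (9.55 to 9.63). On the AdenoGFP array at 9 h Hdac1 read 12.20, far above the other 4 (11.85 to 11.93). Both were picked out by the gap to the nearest array as a share of the range of the group, which chance alone picks about 1 time in 20, and 20 groups of 5 arrays were checked. The siP53 effect differed between the experiments (lincP21KD minus hnRNPKKD) by -0.97 for Cbx5 and by -0.67 for Ezh2, and the siLincp21 effect by 0.39 for Hdac1, each in limma's test of the difference itself. The size for Cbx5 varied between its probe sets.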

How the results depend on the processing

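Of 2460 values of the members under alternatives, 2319 kept their side of the threshold, 93 lost a call, 47 gained one and 1 reversed: Eed in siP53 minus siLincp21 of lincP21KD was 0.014 with the mean of its probe sets. Of 45 calls, 29 were kept throughout. Members called in AdenoCRE minus AdenoGFP numbered 5 with centring, 4 with trend and robust variances, 1 without the filter, 1 with no time block and 0 with the mean of probe sets. Over all genes 2467, 2700, 2301, 1304 and 2231 were called in these fits, against 2427 in the main fit. With centring 1351 of them were lower, against 791 in the main fit. In lincP21KD, siP53 gave 2 with trend and robust variances and 0 with the mean of probe sets, and siLincp21 gave 2 with the mean of probe sets. For the siLincp21 effect between experiments, centring, quantile scaling, the mean of probe sets and trend with robust variances each gave 2. Shares of all genes called in these siRNA alternatives are not given. The cause of the changes in count was not tested.

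Leaving out each array or time in turn, members called ran from 0 to 2 for the viruses and were 0 for all slopes. Genes called for the viruses in those fits ran from 1146 (without 3 h) to 2055 (without 0 h), against 2427 in the main fit. Shares for the slope fits are not given. In lincP21KD they ran from 0 to 3 for siP53, stayed at 1 for siLincp21 and ran from 1 to 3 for siP53 minus siLincp21. In hnRNPKKD they ran from 5 to 8 for siP53, 4 to 6 for siLincp21, 2 to 5 for siHnrnpk, 8 to 9 for siP53 minus siLincp21, 1 to 3 for siHnrnpk minus siLincp21 and 6 to 8 for siHnrnpk minus siP53. Between experiments they ran from 1 to 6 for siP53 and 0 to 2 for siLincp21. Shares of all genes called in these siRNA fits are not given, so the counts are not set against a background. With a replicate block the hnRNPKKD counts were 8 for siP53, 6 for siLincp21 and 5 for siHnrnpk, again with no background. By the limit of 0.1, numbers pair arrays for siHnrnpk and siControl, where the block added Cbx3. Signal limits Cbx3, whose single probe set lies at the 43.8 percentile of genes.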
